A study of Mus musculus with 768 samples.

Results

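Eph receptors and ephrins were described in single nuclei of mouse striatum, across the 2 main types of spiny projection neuron and along the axis between patch and matrix. The genes were taken by symbol from the joint count table, and all 10 were found among its 24489 genes: the receptors Epha3, Epha4, Epha5, Epha6, Epha7, Epha8 and Ephb1 and the ephrins Efna5, Efnb2 and Efnb3. The table holds 12 further genes of the family, used here for comparison. Of 768 wells, the same number came from Oprm1-Cre:H2BG and from Slc32a1-Cre:H2BG mice, 1 plate each, all untreated, of C57BL/6 background and carrying H2BG. Oprm1 is the mu opioid receptor gene, and its Cre was meant to bring in patch neurons. Slc32a1 is the vesicular GABA transporter gene, and its Cre was meant for GABAergic neurons at large. No source used here gives the age, the sex or the number of animals, so each genotype is 1 sample and no test between groups was possible.

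Eph receptors form the largest family of receptor tyrosine kinases, and they bind ephrins on the surface of neighbouring cells. Ephrin-A ligands such as ephrin-A5 are held by a lipid anchor, ephrin-B ligands cross the membrane, and EphA4 is known to bind ligands of both classes. Contact signals into the receptor cell (forward) and into the ephrin cell (reverse), and in the developing striatum the family is known for sorting patch from matrix neurons. The patches (striosomes) are islands rich in mu opioid receptor within the larger matrix. D1 neurons, which carry the dopamine receptor Drd1, and D2 neurons, which carry Drd2, occur in both compartments.

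After 29 Oprm1-Cre and 3 Slc32a1-Cre wells were left out for low depth, 736 nuclei remained, with a median of 169398 and 175337 reads on genes in the respective genotypes. Clusters were made without any Eph or ephrin gene. By 7 markers of each type, 494 nuclei were D1-like, 60.5% of them Oprm1-Cre. D2-like nuclei were scarce in Oprm1-Cre (24 nuclei, 6.76% of those kept) and common in Slc32a1-Cre (38.6%). A leaning score ranked the nuclei of each type by patch genes against matrix genes: the mean log2(CPM + 1) of 10 patch genes, less the same mean for 6 matrix genes. CPM is the count per 1000000 reads on genes. Nuclei in the upper tercile of a type over both plates are called patch-leaning and those in the lower tercile matrix-leaning. No Eph or ephrin gene and no D1 or D2 marker entered the score. Sema5b, a patch gene of the score, was at 272.8 and 49.1 CPM in patch-leaning and matrix-leaning Oprm1-Cre D1-like nuclei, and at 336.2 and 2.59 CPM in Slc32a1-Cre. Not all genes of the score followed it in D2-like nuclei. By the log2 ratio of CPM + 5, patch-leaning over matrix-leaning, 5 of 9 measured patch genes were above 0.5 in Oprm1-Cre and 2 below -0.5. In Slc32a1-Cre 7 of 9 were above and 1 below, with Oprm1 at 2.36 against 7.09 CPM. Of 6 matrix genes, 5 were below on each plate.

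The plates were filled unevenly along this axis. Of the Oprm1-Cre D1-like nuclei 49.8% were patch-leaning and 39 nuclei (13%) matrix-leaning, while of the Slc32a1-Cre D1-like nuclei 16 (8.21%) were patch-leaning and 64.6% matrix-leaning. The D2-like nuclei split into 11 patch-leaning, 7 middle and 6 matrix-leaning in Oprm1-Cre and into 46, 50 and 51 in Slc32a1-Cre. The same tercile still held unlike scores on the plates. Median scores of matrix-leaning D1-like nuclei were -3.08 in Oprm1-Cre and -3.86 in Slc32a1-Cre, with Sema5b at 49.1 and 2.59 CPM. Those of patch-leaning D1-like nuclei were 2.26 and 1.99. Matched leaning, below, means the same tercile and not the same score. The 16 patch-leaning Slc32a1-Cre D1-like nuclei had a median of 137581 reads, against 185006 in the matrix-leaning ones. Their summed markers of Pvalb, Pthlh and Th interneurons were at 277.1 against 14.6 CPM, and their oligodendrocyte markers at 1053 against 268.6 CPM. The part of these values in the leaning results was not tested. The most common D1-like cluster also differed: it was led by Col6a1, Pdyn and Wfs1 in Oprm1-Cre and by Xist, Drd1a (Drd1) and Abi3bp in Slc32a1-Cre. Plate, animals, sex and genotype cannot be told apart.

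The promoters of 3 receptor genes are shown because their levels moved in distinct ways: Epha4 and Epha6 were lower in patch-leaning D1-like nuclei of both plates, and Epha7 differed between the plates at every leaning. Each window runs from 250 bases before to 50 after the gene's start in RefSeq (GRCm38.p6). Capitals mark the GC box, GGGCGG, on either strand. The windows lie at chr1:77515039-77515338 on the minus strand (Epha4), chr16:60605482-60605781 on the minus strand (Epha6) and chr4:28812881-28813180 on the plus strand (Epha7).
Epha4: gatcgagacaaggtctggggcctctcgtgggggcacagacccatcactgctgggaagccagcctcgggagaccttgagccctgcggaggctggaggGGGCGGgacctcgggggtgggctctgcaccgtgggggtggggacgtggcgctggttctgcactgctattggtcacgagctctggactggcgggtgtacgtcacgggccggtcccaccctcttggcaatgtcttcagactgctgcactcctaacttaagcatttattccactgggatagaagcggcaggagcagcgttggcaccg
Epha6: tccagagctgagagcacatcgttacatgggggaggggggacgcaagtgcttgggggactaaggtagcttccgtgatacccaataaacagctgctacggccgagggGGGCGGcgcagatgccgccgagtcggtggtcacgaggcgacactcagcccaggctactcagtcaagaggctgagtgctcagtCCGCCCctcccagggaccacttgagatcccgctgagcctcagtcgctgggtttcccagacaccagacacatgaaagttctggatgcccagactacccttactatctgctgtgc
Epha7: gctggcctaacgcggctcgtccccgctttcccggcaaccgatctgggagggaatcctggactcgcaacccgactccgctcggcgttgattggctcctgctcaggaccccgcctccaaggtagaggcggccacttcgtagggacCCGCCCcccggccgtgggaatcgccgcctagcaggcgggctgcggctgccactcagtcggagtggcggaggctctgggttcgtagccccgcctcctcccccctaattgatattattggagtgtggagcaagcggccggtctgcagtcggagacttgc
The Epha4 window held 1 GC box, that of Epha6 held 2 and that of Epha7 held 1, and 35.7% of 32851 mouse promoter windows of this length held at least 1. All 3 windows were richer in CpG than the median window, with 17, 15 and 28 CpG dinucleotides against 7. The E-box CANNTG, searched on both strands, occurred 5 times for Epha6 and 0 times for Epha4 and Epha7, and 72.3% of all windows held it. None of the 3 windows held the NBRE AAAGGTCA, the site bound by Nr4a receptors (1.51% of all windows), the cAMP response element TGACGTCA (1.79%) or TATAAA (13.6%). A match is a description of the letters only. A promoter entry was found for 9 of the 10 genes.

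In the genome (GRCm38, mm10) Epha4 spans 147.9 kb of chromosome 1 (77367185 to 77515088, minus strand). Epha6 spans 952 kb of chromosome 16 (59653483 to 60605531, minus strand), and Epha7 spans 154.4 kb of chromosome 4 (28813131 to 28967499, plus strand). Efnb3 is compact, with 6.11 kb of chromosome 11 (69554092 to 69560205, minus strand). In the GENCODE annotation Ephb1, on chromosome 9, overlaps 6 genes on the opposite strand, Epha6 overlaps 2, and Epha5 and Epha7 each overlap 1. No source used here says whether counting used strand, so reads of these 4 genes cannot be told apart from reads of those partners.

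Epha4, the EphA receptor that binds both ephrin classes, was low in patch-leaning and high in matrix-leaning D1-like nuclei on both plates. In Oprm1-Cre its level was 59.8 CPM in patch-leaning D1-like nuclei (exact Poisson 95% interval 57 to 62.8, 1628 reads), 223.3 CPM in middle (216.9 to 229.8) and 497.5 CPM in matrix-leaning ones (481.3 to 514.2). In Slc32a1-Cre the same ranges gave 213.7 CPM (196.03 to 232.5, 539 reads), 309.3 CPM (297.9 to 321.04) and 525 CPM (515.8 to 534.2). The intervals do not overlap within either plate. They cover the counting error of pooled reads only, not differences between nuclei or animals. The reads carry no molecular identifiers, so even the counting error may be understated. In a sum over nuclei, fewer nuclei with the transcript and less of it per nucleus cannot be told apart, so shares of nuclei are given as well.

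Single nuclei showed the same order. The median Oprm1-Cre D1-like nucleus held 0 CPM of Epha4 when patch-leaning (highest 817.6 CPM) and 474.9 CPM when matrix-leaning (highest 1410 CPM). In Slc32a1-Cre the medians were 1.52 and 449.6 CPM, and the highest nuclei held 1680 and 1927 CPM. The ranges of single nuclei overlapped, since nuclei at 0 occurred in each range, while the medians stood far apart.

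To compare nuclei at equal depth, each was thinned to 50000 reads. An Epha4 read was then found in 24.3% of patch-leaning Oprm1-Cre D1-like nuclei (36 nuclei, exact 95% interval 17.7% to 32.1%), against 76.9% of matrix-leaning ones (30 of 39, 60.7% to 88.9%). In Slc32a1-Cre the shares were 37.5% (6 of 16, 15.2% to 64.6%) and 80.2% (72.1% to 86.7%). Unthinned, they were 28.9% and 76.9% in Oprm1-Cre and 50% and 85.7% in Slc32a1-Cre. Matrix-leaning nuclei thus held an Epha4 read more often on both plates, with intervals that do not overlap.

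**Figure D1:**
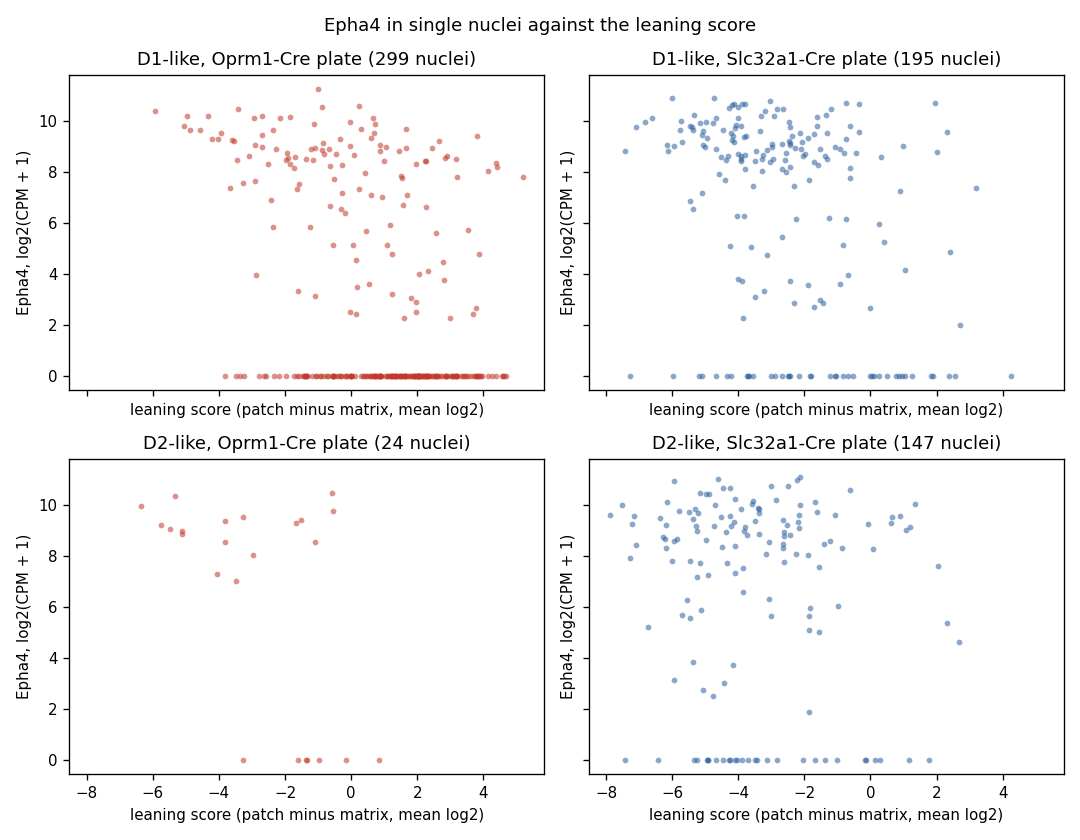
Level of Epha4 in each nucleus (vertical axis, log2 of CPM + 1) against its leaning score (horizontal axis, mean log2 level of patch genes less that of matrix genes), with 1 panel for each plate and neuron type and 1 point for each nucleus. In D1-like nuclei the points at 0 gather at patch-leaning scores, and in Slc32a1-Cre D2-like nuclei they are spread over the whole score.

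The log2 ratio of patch-leaning over matrix-leaning D1-like nuclei, taken with 5 CPM added to both levels, was -2.95 for Epha4 in Oprm1-Cre, a level 7.75-fold lower. Only 0.063% of the 11114 measured genes (at least 5 CPM in either group), genes of the score included, lay as low. In Slc32a1-Cre the ratio was -1.28, and 20.2% of 10973 measured genes lay as low. Among genes with at least 100 CPM in either group, 0.0782% of 2559 lay as low in Oprm1-Cre and 7.56% of 2832 in Slc32a1-Cre. The change in Epha4 thus stood out more in Oprm1-Cre than in Slc32a1-Cre. A single nucleus gave 45.5% of the Epha4 reads of the 16 patch-leaning Slc32a1-Cre nuclei. Without the top nucleus of each group the Slc32a1-Cre ratio was -2.01. Across single D1-like nuclei, Spearman's rho between Epha4 and the leaning score was -0.38 in Oprm1-Cre and -0.34 in Slc32a1-Cre, as a description of nuclei that share a plate and its depth.

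Slc32a1-Cre D2-like nuclei showed little of this slope. Their Epha4 level was 471 CPM when patch-leaning (456.1 to 486.2), 469.2 CPM in the middle (455.7 to 483.1) and 508.9 CPM when matrix-leaning (496.1 to 522). The share with a read at equal depth was 76.1%, 76% and 76.5%, and rho with the score was -0.07. The log2 ratio was -0.11 there and -0.74 in Oprm1-Cre, where 11 patch-leaning nuclei (416.5 CPM) stood against 6 matrix-leaning ones (698.3 CPM). Whether the D1-like and D2-like slopes differ was not tested, since each is 1 value a plate. The terciles were set within each type and cover unlike scores. Patch-leaning Slc32a1-Cre nuclei had a median score of 1.99 when D1-like and -1.30 when D2-like.

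Ordered over all 12 sums, Epha4 ran from 59.8 CPM in patch-leaning Oprm1-Cre D1-like nuclei to 698.3 CPM in the 6 matrix-leaning Oprm1-Cre D2-like nuclei. Of neighbours in this order, 213.7 and 223.3 CPM had overlapping intervals, as had 309.3 and 317.4 CPM, and as had 469.2 and 471 CPM. Matrix-leaning D1-like nuclei of Oprm1-Cre and Slc32a1-Cre (497.5 and 525 CPM) stood beside matrix-leaning Slc32a1-Cre D2-like nuclei (508.9 CPM), whose interval overlaps both, and the intervals of 471 and 497.5 CPM overlapped as well.

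**Figure D2:**
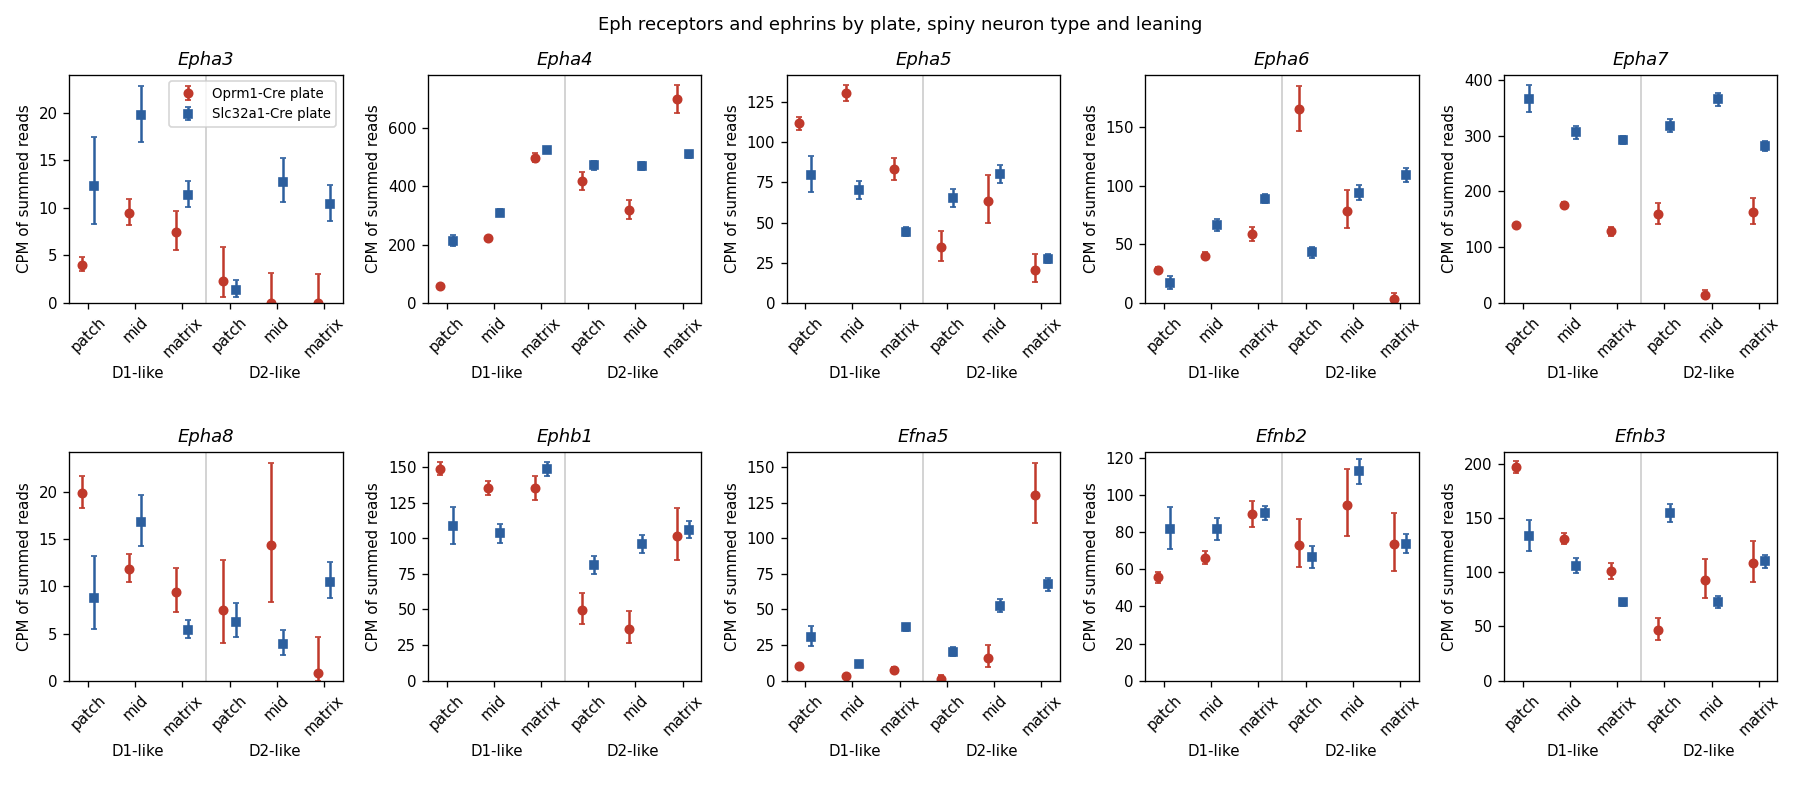
CPM of summed reads (vertical axes, linear from 0, a scale for each gene) of the 10 genes in patch-leaning, middle and matrix-leaning nuclei of each type, by plate. Bars are exact Poisson 95% intervals of the read count. Epha4 climbs from patch to matrix in D1-like nuclei of both plates, and Epha7 is higher in Slc32a1-Cre in every range.

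The clusters, made without the family, varied in Epha4 as well. The cluster led by Cnr1 and Coch held 459.6 CPM in 44 Oprm1-Cre nuclei and 460.1 CPM in 30 Slc32a1-Cre nuclei. The cluster led by Col6a1, Pdyn and Wfs1 held 141.1 CPM (90 nuclei) and 184.1 CPM (24 nuclei), with a median nucleus at 0 CPM on both plates. Thus clusters with both genotypes could hold Epha4 at like levels. A cluster led by Sema5b, Tac1 and Atp11a held 81.7 CPM in 73 Oprm1-Cre nuclei and 24.7 CPM in 7 Slc32a1-Cre nuclei. The genotypes lay farther apart in the cluster led by Tac1, Sema5b and Pdyn, which held 80 CPM in 87 Oprm1-Cre nuclei and 430.5 CPM in 20 Slc32a1-Cre nuclei. Its median nuclei were closer, at 0 and 35.3 CPM of Epha4, so the higher sum came from some of the nuclei.

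Over all D1-like nuclei the log2 ratio of Epha4, Oprm1-Cre over Slc32a1-Cre, was -1.31. Within matrix-leaning D1-like nuclei it was -0.08, so the plates were nearly level there. Within patch-leaning ones it was -1.75, and -0.23 where D1 and D2 scores had to lie at least 4 apart, which left 5 patch-leaning Slc32a1-Cre nuclei.

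Epha6, another EphA receptor, followed the direction of Epha4. In Oprm1-Cre D1-like nuclei it was at 28.3 CPM when patch-leaning (26.3 to 30.3), 40.3 CPM in the middle (37.6 to 43.2) and 58.7 CPM when matrix-leaning (53.2 to 64.6). Slc32a1-Cre gave 17 CPM (12.3 to 23, 43 reads), 66.5 CPM (61.2 to 72) and 89 CPM (85.2 to 92.8). The log2 ratios were -0.94 and -2.09, and 7.7% and 7.52% of measured genes lay as low. For Epha6 the first ratio was -0.35 when each nucleus was classed alone from its markers, and the second was -0.56 with terciles set within each plate. At equal depth an Epha6 read was found in 23% of patch-leaning and 43.6% of matrix-leaning Oprm1-Cre D1-like nuclei, and in 25% and 46.8% of the Slc32a1-Cre ones.

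Slc32a1-Cre D2-like nuclei carried Epha6 in that order too. Its level was 43.1 CPM in patch-leaning nuclei (38.7 to 47.9), 94.2 CPM in middle and 108.7 CPM in matrix-leaning nuclei (102.8 to 114.9), a log2 ratio of -1.24. The few Oprm1-Cre D2-like nuclei went the other way, with 164.98 CPM in 11 patch-leaning nuclei and 3.31 CPM in 6 matrix-leaning nuclei, from 4 reads (0.90 to 8.46 CPM).

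**Figure D3:**
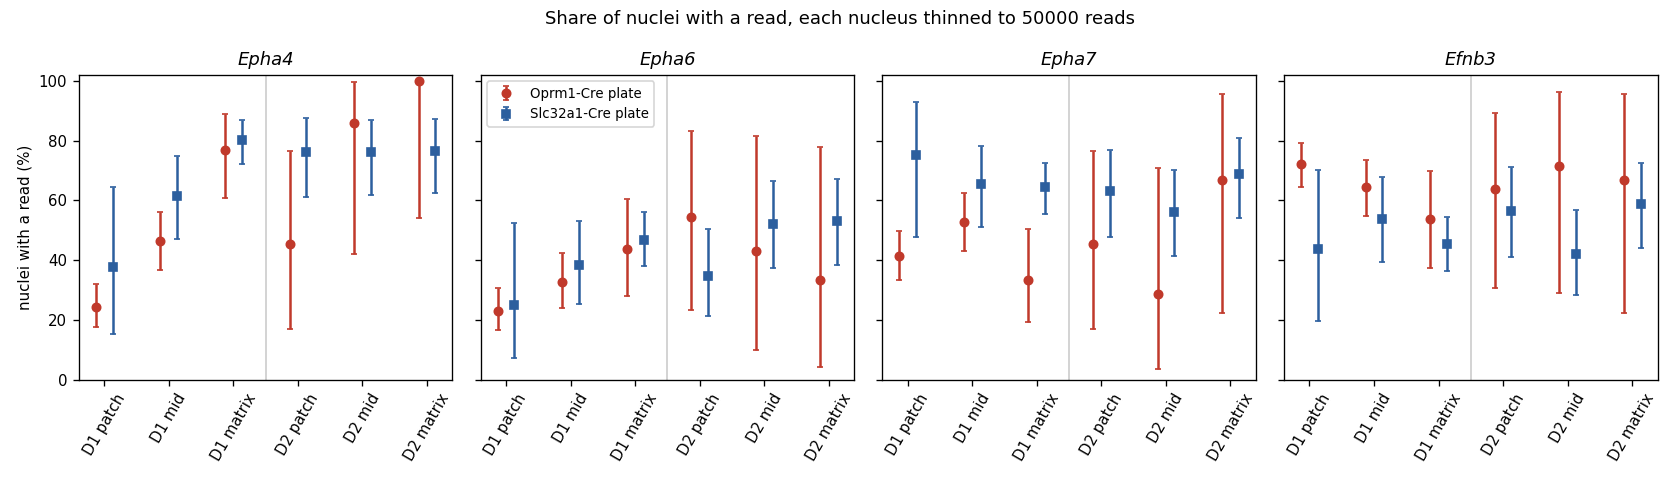
Share of nuclei with at least 1 read (vertical axis, percent) of Epha4, Epha6, Epha7 and Efnb3 after each nucleus was thinned to 50000 reads, for each plate, type and leaning. Bars are exact Clopper-Pearson 95% intervals. The share for Epha4 climbs from 24.3% to 76.9% and from 37.5% to 80.2% in D1-like nuclei and lies between 76% and 76.5% in Slc32a1-Cre D2-like nuclei.

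Epha7, an EphA receptor that binds ephrin-A5, differed between the plates more than along the axis. D1-like nuclei held 151.4 CPM in Oprm1-Cre (148.2 to 154.7) and 300.8 CPM in Slc32a1-Cre (295.1 to 306.6). D2-like nuclei held 119.3 CPM (108.96 to 130.3) and 318.8 CPM (312.3 to 325.3). The log2 ratio of the plates was -0.97 for D1-like and -1.38 for D2-like nuclei, so Epha7 was 1.96-fold and 2.61-fold lower in Oprm1-Cre. Of the measured genes, 2.11% and 7.45% lay as low.

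The gap in Epha7 was present at matched leaning. Oprm1-Cre over Slc32a1-Cre, the log2 ratio was -1.15 in matrix-leaning and -1.36 in patch-leaning D1-like nuclei, and -0.76 and -0.98 in matrix-leaning and patch-leaning D2-like nuclei. In the D2-like sums 1 nucleus held 64.1% (matrix-leaning) and 67% (patch-leaning) of the Oprm1-Cre Epha7 reads, and without the top nucleus of each group the ratios were -1.77 and -1.94. Leaning itself moved Epha7 by less than 0.5, with ratios of 0.11 and 0.32 in Oprm1-Cre and Slc32a1-Cre D1-like nuclei and 0.17 in Slc32a1-Cre D2-like nuclei. At equal depth an Epha7 read was found in 44.4% of Oprm1-Cre D1-like nuclei (38.7% to 50.3%), against 65.5% of Slc32a1-Cre ones (58.3% to 72.1%). The gap was also seen within clusters, with 168.8 against 263.9 CPM of Epha7 in the cluster led by Cnr1 and Coch and 115.8 against 193.3 CPM in the cluster led by Col6a1, Pdyn and Wfs1.

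Epha5, a receptor for ephrin-A ligands, went the other way between the plates in D1-like nuclei. D1-like nuclei held 115.2 CPM in Oprm1-Cre (112.4 to 118.1) and 53.4 CPM in Slc32a1-Cre (51 to 55.9), a log2 ratio of 1.04, with 2.6% of measured genes as high. Within the same tercile, where scores still differed between the plates, the ratio was 0.84 in matrix-leaning and 0.46 in patch-leaning D1-like nuclei. D2-like nuclei did not share this direction, with 38.8 CPM of Epha5 in Oprm1-Cre and 55.1 CPM in Slc32a1-Cre, a log2 ratio of -0.46. At matched leaning the D2-like ratio was -0.82 in patch-leaning nuclei (-2.12 without the top nucleus of each group, -0.31 with terciles set within each plate) and -0.34 in matrix-leaning ones. The cluster led by Col6a1, Pdyn and Wfs1 held more Epha5 than the other spiny neuron clusters on both plates, with 202.99 and 154.8 CPM. In Slc32a1-Cre D2-like nuclei Epha5 was at 65 CPM when patch-leaning and 27.5 CPM when matrix-leaning, a log2 ratio of 1.11. For leaning in Slc32a1-Cre D1-like nuclei the ratio of Epha5, 0.78, was -0.77 without the top nucleus of each group, since 1 nucleus gave 78.6% of the Epha5 reads of the 16.

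Epha3 and Epha8, both receptors for ephrin-A ligands, were rare. Epha3 had a read in 4.71% of Oprm1-Cre and 4.64% of Slc32a1-Cre D1-like nuclei at equal depth, with 6.52 and 13.6 CPM in the sums. In D2-like nuclei Epha3 was at 0.97 CPM (4 reads, 0.26 to 2.48 CPM) and 8.72 CPM. A single nucleus gave 27.6% and 30.2% of its D1-like reads, so these sums rest on few nuclei. Epha8 was at 15.5 CPM (14.5 to 16.6) and 8.53 CPM (7.6 to 9.55) in D1-like nuclei and at 7.52 and 7.16 CPM in D2-like nuclei, with a read in 14.8% and 8.25% of the D1-like nuclei.

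Ephb1, the EphB receptor of the set, binds ephrin-B ligands and was found in most D1-like nuclei. At equal depth 75.8% of Oprm1-Cre (70.5% to 80.5%) and 64.4% of Slc32a1-Cre D1-like nuclei (57.3% to 71.2%) had an Ephb1 read, against 41.7% and 51% of D2-like nuclei. Its level was 141.9 CPM (138.7 to 145.04) and 134.3 CPM (130.6 to 138.2) in D1-like nuclei. D2-like nuclei held 61.1 CPM (53.8 to 69.1) and 95.8 CPM (92.3 to 99.4). The log2 ratio of D1-like over D2-like nuclei was 1.15 and 0.47, with 12.4% and 16.3% of measured genes as high. Neither leaning ratio of Ephb1 in D1-like nuclei, 0.13 and -0.44, passed 0.5. The Oprm1-Cre D2-like nuclei are 24, and 1 of them gave 39.7% of their Ephb1 reads. Without the top nucleus of each group the Oprm1-Cre ratio of the types was 1.72. Oprm1-Cre over Slc32a1-Cre, the D2-like ratio of Ephb1 was -0.61 and stayed past 0.5 in 5 of 8 alternative settings, with -0.29 when nuclei were thinned, -0.33 as a mean over nuclei, -0.44 when each nucleus was classed alone and -1.10 without the top nucleus of each group.

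Among the ligands, Efnb3, an ephrin-B known as a midline barrier to axons, was higher in patch-leaning D1-like nuclei. Oprm1-Cre gave 196.6 CPM in patch-leaning (191.3 to 201.9), 130.9 CPM in middle (126.03 to 135.9) and 101.1 CPM in matrix-leaning nuclei (93.8 to 108.7). Slc32a1-Cre gave 133.2 CPM (119.3 to 148.2), 106.1 CPM (99.4 to 113.03) and 72.1 CPM (68.7 to 75.6). The log2 ratios were 0.93 and 0.84, opposite in sign to those of Epha4 and Epha6, and 10.5% and 15.9% of measured genes lay as high. At equal depth an Efnb3 read was found in 72.3% of patch-leaning and 53.8% of matrix-leaning Oprm1-Cre D1-like nuclei, while the Slc32a1-Cre shares were 43.8% and 45.2%. Only 4 of 10 alternative settings kept the Slc32a1-Cre ratio of Efnb3 past 0.5, and all 10 kept the Oprm1-Cre one. With D1 and D2 scores at least 4 apart, which left 5 patch-leaning nuclei, the Slc32a1-Cre ratio was -1.35.

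Between the plates Efnb3 stood at 159.5 CPM (156.2 to 162.9) in Oprm1-Cre and 85.1 CPM (82.1 to 88.2) in Slc32a1-Cre D1-like nuclei, a log2 ratio of 0.87. In D2-like nuclei it stood at 78.1 and 109.6 CPM, a ratio of -0.46. Within the same tercile, where scores still differed between the plates, the D1-like ratio was 0.54 in patch-leaning and 0.46 in matrix-leaning nuclei. The patch-leaning ratio of Efnb3 was 0.32 with at least 100000 reads a nucleus and 2.72 with scores at least 4 apart. Efnb2, the other ephrin-B and a ligand known for its part in vessel and axon guidance, varied less between plates and types. Its level ranged from 63.9 to 87.3 CPM over the D1-like and D2-like nuclei of both plates, with a read in 40.4% and 38.1% of D1-like and 50% and 37.4% of D2-like nuclei. Along the axis it was lower in patch-leaning Oprm1-Cre D1-like nuclei, at 55.6 against 89.6 CPM when matrix-leaning. That log2 ratio of Efnb2, -0.64, was past 0.5 in 9 of 10 alternative settings and -0.36 with scores at least 4 apart.

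Efna5, which encodes ephrin-A5, was lower in D1-like than in D2-like nuclei on both plates, and its reads came from few nuclei. Oprm1-Cre nuclei held 7.25 CPM (6.56 to 8) when D1-like and 43.4 CPM (37.3 to 50.2) when D2-like. Slc32a1-Cre nuclei held 30.4 CPM (28.6 to 32.3) and 49.7 CPM (47.2 to 52.3). The log2 ratios were -1.98 and -0.63, of which the second did not pass 0.5 under every setting. In Oprm1-Cre, 1 of 24 D2-like nuclei gave 52.5% of the Efna5 reads, and the ratio was -1.25 without the top nucleus of each group. A single Slc32a1-Cre D2-like nucleus gave 36% of the Efna5 reads of that group, and the ratio was -0.29 without the top nucleus of each group and -0.42 with at least 100000 reads a nucleus. An Efna5 read was found in 12.89% of Slc32a1-Cre D1-like and 12.93% of D2-like nuclei, a difference smaller than the width of their intervals. Between the plates the log2 ratio of Efna5 in D1-like nuclei was -1.53, with 0.345% of measured genes as low and a read in 6.73% of the Oprm1-Cre nuclei (4.16% to 10.2%).

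Within D2-like nuclei Efna5 was lower when patch-leaning. Slc32a1-Cre gave 20.1 CPM in patch-leaning (17.2 to 23.5) and 67.6 CPM in matrix-leaning nuclei (62.9 to 72.4), a log2 ratio of -1.53 that was -0.61 without the top nucleus of each group. Oprm1-Cre gave 1.15 CPM from 2 reads in 11 nuclei (0.14 to 4.17 CPM) and 130.6 CPM in 6 nuclei (111.001 to 152.6 CPM).

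**Figure D4:**
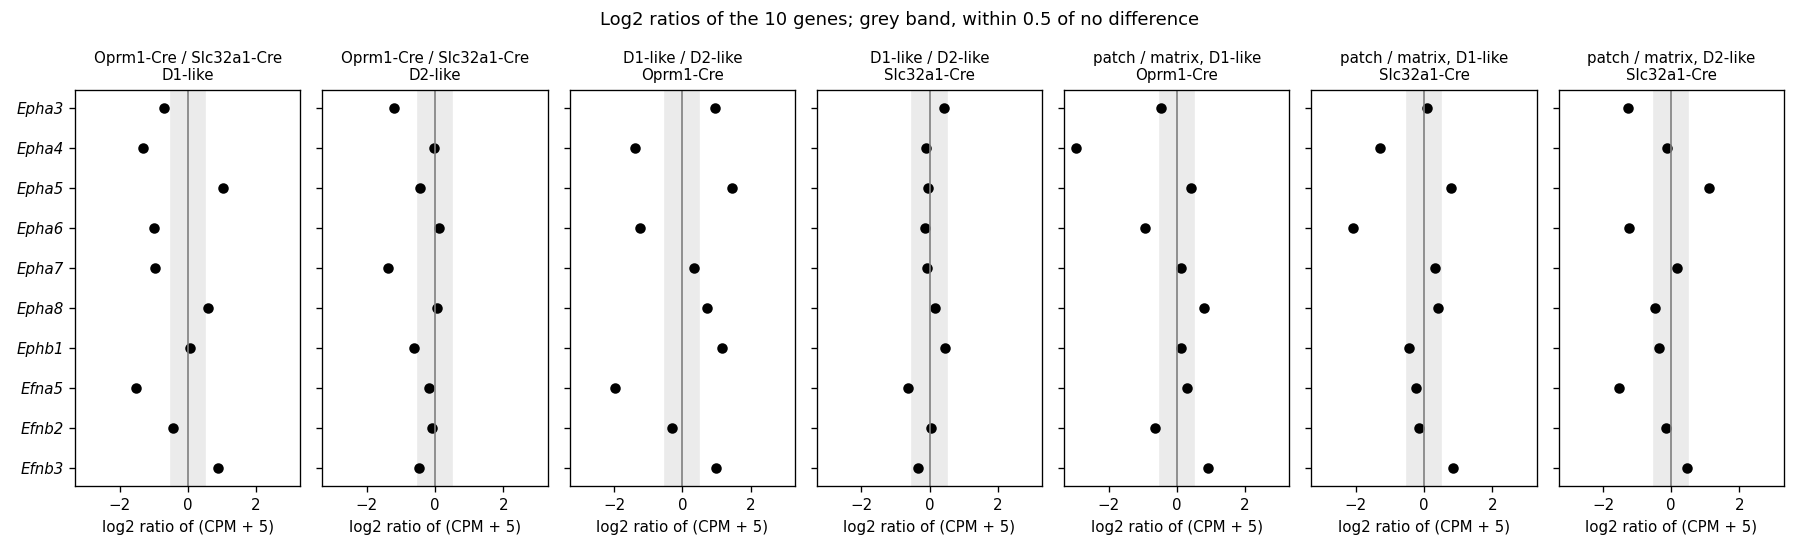
Log2 ratios of (CPM + 5) for the 10 genes in 7 comparisons, with 1 point for each gene and comparison and a grey band for values within 0.5 of no difference. The leaning ratios of Oprm1-Cre D2-like nuclei, 11 against 6 nuclei, are given in the text only. Epha4 has the lowest point for leaning in Oprm1-Cre D1-like nuclei, at -2.95.

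The members were chosen with earlier results of these data known, so counts over them are no independent result about the family. Of 10 members, 8 passed a log2 ratio of 0.5 between the plates in D1-like nuclei, where 27.2% of 11020 measured genes did. These nuclei were 49.8% patch-leaning in Oprm1-Cre and 8.21% in Slc32a1-Cre, and the part of leaning in this count was not tested. The 3 higher in Oprm1-Cre were Epha5, Epha8 and Efnb3 (14.9% of genes were higher), and the 5 lower were Epha3, Epha4, Epha6, Epha7 and Efna5 (12.3%). The ratio of Epha3 was -0.69, and -0.02 with D1 and D2 scores at least 4 apart. In D2-like nuclei 3 of 10 passed, against 52.7% of genes (23.6% higher, 29.2% lower), and Epha3, Epha7 and Ephb1 were all lower. At matched leaning the shares of all genes past 0.5 were larger, with fewer nuclei in each sum. In patch-leaning D1-like nuclei 3 members were higher and 5 lower, where 64.6% of genes passed (39.8% higher, 24.8% lower), and in matrix-leaning ones 1 was higher and 3 lower, where 46.8% passed (21.9% and 25%). In patch-leaning D2-like nuclei 1 of 9 measured members was higher and 5 lower, where 69.7% of genes passed (29.3% and 40.5%). In matrix-leaning D2-like nuclei 1 was higher and 4 lower, where 69.5% passed (27.8% and 41.7%).

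Between types, 5 of 10 members were higher and 3 lower in Oprm1-Cre D1-like than D2-like nuclei, where 49.6% of genes passed 0.5 (30.3% higher, 19.3% lower). In Slc32a1-Cre 1 of 10, Efna5, was lower and 0 were higher, where 25.3% passed (14.9% and 10.4%). The median leaning score was 0.92 for D1-like and -3.11 for D2-like nuclei of Oprm1-Cre and -2.69 and -3.86 in those of Slc32a1-Cre. Pdyn and Asic4, patch genes of the score, were themselves higher in D1-like nuclei of both plates. The part of leaning in the type ratios was not tested.

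Along the axis, 2 members were higher and 3 lower in patch-leaning Oprm1-Cre D1-like nuclei, where 42.9% of genes passed 0.5 (22.8% higher, 20.1% lower). In Slc32a1-Cre D1-like nuclei 2 were higher and 2 lower, where 64.4% passed (24.6% and 39.8%). In Oprm1-Cre D2-like nuclei 3 of 9 were higher and 4 lower, where 76.2% passed (39% and 37.2%). In Slc32a1-Cre D2-like nuclei 1 of 10 was higher and 3 lower, where 52.2% passed (25.5% and 26.7%). The members' counts along the axis are near or below these backgrounds, so they are no result about the family as a whole.

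Members past 0.5 in the same direction on both plates were few. For D1-like over D2-like nuclei Efna5 was lower on both, as were 2.72% of 10462 genes measured on both plates, and no member was higher on both (6.07% of genes were). For leaning in D1-like nuclei Efnb3 was higher (6.63% of 10336 genes were), and Epha4 and Epha6 were lower (9.37%). For leaning in D2-like nuclei Epha5 was higher and Efna5 was lower, each with 11% of 9368 genes. The Oprm1-Cre ratio of Epha5 there, 0.63, was -0.33 without the top nucleus of each group.

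Pairs of members were nearly unrelated within single D1-like nuclei. Over the 45 pairs on each plate Spearman's rho lay between -0.18 and 0.16, and in sparse counts such values are no finding.

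Interneuron-like nuclei, 21 on each plate, carried several members at levels unlike those of spiny neurons. Epha4 was at 695.8 CPM (670.2 to 722.1) in Oprm1-Cre and 757.2 CPM (731.1 to 783.9) in Slc32a1-Cre. Epha5 was at 294.5 and 387.4 CPM, and Efna5 at 129.5 and 83.6 CPM. These pooled levels were above those of both spiny types on both plates, but the interneuron clusters were unlike. The Pvalb, Pthlh and Th cluster held 828 and 874.2 CPM of Epha4 in Oprm1-Cre and Slc32a1-Cre, and the Sst and Npy cluster, of 3 and 5 nuclei, held 22.7 and 404.9 CPM. In the Sst and Npy cluster Efna5 was at 0 reads in Oprm1-Cre and 75.3 CPM in Slc32a1-Cre. Epha5 was high in both clusters, with 234.1 and 344.9 CPM in the former and 601.9 and 515.4 CPM in the latter. Efnb2 was at 36.8 and 13.3 CPM, with a read in 3 of 20 and 1 of 21 nuclei at equal depth. Ephb1 was at 98.3 and 10.2 CPM, with a read in 8 of 20 and 1 of 21. The Slc32a1-Cre interneuron-like nuclei, at 4.76% for both genes, give a low point beside which the Slc32a1-Cre D1-like shares of Ephb1 and Efnb2, 64.4% and 38.1%, can be read. The Oprm1-Cre interneuron-like nuclei, with 8 of 20, give no such low point for Ephb1.

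Of the 12 other family genes, 4 reached 5 CPM in a D1-like or D2-like sum. Ephb6, an EphB receptor without kinase activity, was at 127.2 and 134.3 CPM in Oprm1-Cre and Slc32a1-Cre D1-like nuclei and at 193.5 and 113.5 CPM in D2-like nuclei. Efna3, an ephrin-A, ranged from 27.3 to 45.4 CPM over these 4 sums, and Efna2, another ephrin-A, from 3.02 to 9.97 CPM. Epha10, a receptor that also lacks kinase activity, was at 3.18 to 10.7 CPM in spiny neurons and at 99.1 and 76 CPM in interneuron-like nuclei.

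Genes that carry the signal on were mixed along the axis. Of 25 genes of Eph forward signalling, 24 were measured in Oprm1-Cre D1-like nuclei, with 4 above and 5 below a leaning ratio of 0.5 and a median of -0.05, against 0.02 over all genes. In Slc32a1-Cre 23 were measured, with 5 above, 11 below and a median of -0.45, against -0.20 over all genes. Fyn, a Src-family kinase, was lower in patch-leaning D1-like nuclei of both plates, with 39.3 against 74.8 CPM and 17.8 against 47.8 CPM. Tiam1, an exchange factor for Rac, was lower as well (log2 ratios of -0.84 and -1.30). Of 13 genes of ephrin reverse signalling, scaffolds and shedding, 3 were above and 2 below among 11 measured in Oprm1-Cre, and 4 above and 4 below among 10 in Slc32a1-Cre. For both lists these counts stand beside the shares of all measured genes, 22.8% above and 20.1% below in Oprm1-Cre and 24.6% above and 39.8% below in Slc32a1-Cre, and nothing particular to the lists is read from them. Ntrk2, the BDNF receptor gene, was higher in patch-leaning D1-like nuclei of both plates, with 481.6 against 254.6 CPM and 561.4 against 189.9 CPM.

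Between D1-like and D2-like nuclei, 6 forward genes were above and 4 below 0.5 among 23 measured in Oprm1-Cre, and 5 above and 2 below among 24 in Slc32a1-Cre. Of the reverse genes, 5 were above and 2 below among 11 in Oprm1-Cre, and 1 above and 0 below among 10 in Slc32a1-Cre. Of all measured genes, 30.3% were above and 19.3% below in Oprm1-Cre and 14.9% and 10.4% in Slc32a1-Cre. Yes1, a Src-family kinase, had ratios of 1.29 and 1.28, Abl2, an Abl-family kinase, 0.50 and 1.19, and Grip2, a PDZ scaffold that binds ephrin-B tails, 0.61 and 0.94. Between plates in D1-like nuclei, 3 forward genes were above and 2 below among 24 measured, and 3 reverse genes above and 2 below among 11, where 14.9% of all measured genes were above and 12.3% below. Vav3, a guanine nucleotide exchange factor, was at 12.7 CPM in Oprm1-Cre against 39.6 CPM in Slc32a1-Cre, Sdcbp, the scaffold syntenin, at 103.6 against 241.8 CPM, and Gfra1, the GDNF co-receptor gene, at 5.98 against 0.23 CPM. Between plates in D2-like nuclei, 8 forward genes were above and 5 below among 24 measured, and 2 reverse genes above and 4 below among 9, where 23.6% of all measured genes were above and 29.2% below. Sdc2, the proteoglycan syndecan-2, was at 37.8 against 142.5 CPM, the adaptor gene Nck1 at 0.73 CPM (3 reads) against 38.4 CPM and Chn2, a GTPase-activating protein for Rac, at 0.24 CPM (1 read) against 13.9 CPM.

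By likeness over the 12 sums of plate, type and leaning (Pearson's r of log2(CPM + 5) among 7415 genes), Epha4 was closest to Rgs4, Snap47 and Coch (0.89 to 0.85). Epha5 was closest to Exosc10, Ddx39 and Neto1 (0.93 to 0.87), Epha6 to Cntn6 and Smap1 (0.92 and 0.91) and Epha7 to Bcap29, Lgmn and Ric3 (0.96 to 0.95). Ephb1 was closest to Gmeb1, Usp37 and Pea15a (0.94 to 0.93), Efna5 to Scn4b, Ubtf and Snx10 (0.89 to 0.86) and Efnb3 to Zfp462, Map3k1 and Ddb2 (0.86 to 0.83). Epha3 was closest to Daglb, Haus2 and Vkorc1 (all 0.89), Epha8 to Mfn1, Tmem179 and Agap2 (0.88 to 0.82) and Efnb2 to Fmnl1, Galnt14 and Dmd (0.75 to 0.71). The sums share plates and depth, and some hold 6 or 7 nuclei.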

How the data were processed

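Nuclei of mouse striatum were measured by RNA sequencing, 1 nucleus a well. The authors deposited raw counts of reads for each gene and well, not normalized, in a joint table with 92 spike-in transcripts and 1 reporter entry. These extra entries stayed out of every total (spike-ins took 23.6% of all reads). The submitters' processing notes name mm10, SAMtools and Seurat, and the aligner, the counter, the annotation and the use of strand were not given in the sources used here. RNA was taken up on a column and a stranded total RNA kit made the libraries, per the labels' protocols, and the amplification of single nuclei is not described. The labels of 1 genotype, Slc32a1-Cre, give a table name with a different plate number from the file at hand, so wells were assigned by column name, which matches the end of 1 sample title each.

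Wells were kept with at least 20000 reads on genes (kept nuclei had 22727 to 581313) and 1000 genes with a read. They were clustered with scanpy 1.11.5 and leidenalg 0.10.2 (Python 3.11.15, 2000 variable genes, 30 components, 15 neighbours, resolution 1, seed 1), leaving out the family. Spiny nuclei were typed by a gap over 2 between the mean log2(CPM + 1) of the D1 markers (Ebf1, Sfxn1, Slc35d3, Eya1, Isl1, Tac1 and Drd1, listed as Drd1a) and of the D2 markers (Grik3, Sp9, Gpr52, Gpr6, Penk, Adora2a and Drd2), and 30 nuclei lay within 0.5 of that limit. Patch genes were Oprm1, Sema5b, Kremen1, Lypd1, Pdyn, Nr4a1, Bach2, Kcnip1, Asic4 and Rasgrp1, and matrix genes Id4, Calb1, Sv2b, Gda, Rasgrp2 and Sgk1. The limits of the leaning score were -1.97 and 0.94 for D1-like and -4.56 and -2.58 for D2-like nuclei. No doublet caller was run, and 1 alternative left out 71 possible doublets. Counts were summed by plate, type and leaning. With 1 sample a group no test was run, and nuclei were not treated as replicates. Ratios are of log2(CPM + 5), which understates the change of low genes, and the calculation was tested on simulated counts. Intervals (95%) are exact Poisson or Clopper-Pearson. The Clopper-Pearson intervals of shares count nuclei of 1 plate as independent, so they are descriptions and cover no difference between animals. The genes and lists were chosen with earlier results of these data known.

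The text names all 10 members, other family genes with at least 5 CPM in a D1-like or D2-like sum, the 3 signalling genes with the largest ratios past 0.5 in a comparison (on both plates for type and leaning) and the 3 genes most like each member among those with a mean of at least 20 CPM, of which 1 is not reported here. Alternatives were 1 CPM added, thinning to 50000 reads, at least 100000 reads, the mean over nuclei, type scores at least 4 apart, doublets left out, nuclei classed alone, terciles within a plate, and a leaning score without Oprm1 and Pdyn. Leaving out the top nucleus of each group was added after seeing the data.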

Additional observations from a re-analysis of the deposited data

Results flagged for a closer look

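A few ratios went opposite ways in groups that were compared in the same manner, and none of these differences was tested. The log2 ratio of Epha6 for patch-leaning over matrix-leaning D2-like nuclei was 4.36 in Oprm1-Cre and -1.24 in Slc32a1-Cre. Within Oprm1-Cre the ratio of Epha6 was -0.94 in D1-like nuclei and 4.36 in D2-like nuclei. The ratio of Efnb3 there was 0.93 in D1-like nuclei and -1.13 in D2-like nuclei. Each of these involves the Oprm1-Cre D2-like nuclei, of which 11 were patch-leaning and 6 matrix-leaning, and the 6 held 4 reads of Epha6.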

How the results depend on the processing

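Of 64 member ratios past 0.5, the alternatives gave 600 values, of which 586 had the same sign and 544 stayed past 0.5. Among the 64 is Epha3 for leaning in Oprm1-Cre D2-like nuclei, which was below 5 CPM in both groups and so is in none of the counts of members. The count of members past 0.5 for D1-like over D2-like nuclei in Slc32a1-Cre, 1 as reported, was 3 with thinning, 0 with at least 100000 reads and without the top nucleus, and 2 with 1 CPM added, the mean over nuclei, scores at least 4 apart, doublets left out or nuclei classed alone. With terciles within a plate, the counts for leaning in Slc32a1-Cre D1-like nuclei and for the plates in matrix-leaning D1-like nuclei both moved from 4 to 7, and with scores at least 4 apart the first was 9 (5 patch-leaning nuclei). For leaning in Oprm1-Cre D2-like nuclei it moved from 7 to 4 with thinning and to 4 without the top nucleus, which also took the count for the plates in D2-like nuclei from 3 to 5.

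Signs turned in these cases. With scores at least 4 apart, leaning in Slc32a1-Cre D1-like nuclei gave -1.35 for Efnb3, and the plates in patch-leaning D1-like nuclei gave 0.82 for Epha3, -0.19 for Epha8, 1.32 for Efna5 and 3.76 for Efnb2. Without the top nucleus, Epha5 was -0.77 (leaning, D1-like, Slc32a1-Cre) and -0.33 (leaning, D2-like, Oprm1-Cre), Ephb1 was 0.19 (the same), and Efna5 was 1.28 and Efnb2 0.51 (plates, patch-leaning D1-like). With terciles within a plate, Epha8 was -0.085 (leaning, D2-like, Oprm1-Cre) and 0.062 (plates, matrix-leaning D2-like), and Epha6 was -1.27 (plates, patch-leaning D1-like). The cause was not tested. The ratio of Epha4 for leaning in D1-like nuclei ranged from -3.10 to -2.55 in Oprm1-Cre and from -2.81 to -1.06 in Slc32a1-Cre. No paired analysis was possible because each genotype is 1 sample and wells carry no shared replicate.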
